A study of Homo sapiens with 4 samples.

Results

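The 10 genes described here control the passage of a cell from G1 into S phase, and all of them were found by symbol among the 58735 genes of the deposited table. They are the D-type cyclin genes CCND1, CCND2 and CCND3, the kinase genes CDK4 and CDK6, the INK4 inhibitor genes CDKN2A, CDKN2C and CDKN2D, the KIP inhibitor gene CDKN1B, and RB1. They were measured by RNA-seq in SUP-M2, an established human line of ALK-positive anaplastic large cell lymphoma, which arises from mature T cells. The GOLM1-targeted cells carried short hairpin RNA against GOLM1, a Golgi membrane protein (shGOLM1, 2 libraries), and the control cells carried a scrambled hairpin (shscramble, 2 libraries). The genotype label calls the shGOLM1 cells a knockout while the titles name a hairpin, and the labels give neither the hairpin sequence, nor whether both libraries carried the same one, nor the time of harvest. Nothing in the labels says that replicates were separate cultures, so a p-value here reflects library-to-library spread alone, part or all of which may be technical.

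D-type cyclins are made in response to growth signals and activate CDK4 and CDK6, which phosphorylate the retinoblastoma protein encoded by RB1. That phosphorylation releases the E2F transcription factors, which switch on genes for DNA replication. INK4 proteins bind CDK4 and CDK6 and keep them from the cyclins, whereas p27, the product of CDKN1B, acts chiefly on cyclin E with CDK2. In lymphoid cells CDK6 and cyclin D3 are prominent forms of the kinase and the cyclin, and the active ALK kinase of this lymphoma drives growth signals that end on the G1 machinery.

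Libraries held 30889185 and 27544171 counts in shGOLM1 and 31972153 and 31608073 counts in shscramble. GOLM1 itself was at 69.6 and 69.5 CPM in shGOLM1 against 212 and 213 CPM in shscramble (CPM, counts scaled to the normalized library total). Its log2 fold change was -1.61 and did not pass edgeR's quasi-likelihood test (adjusted p = 0.42). The log2 fold change deposited by the authors is -1.64, with an adjusted p-value of 0.0531. The shGOLM1 libraries stood apart from each other. Their biological coefficient of variation (the square root of edgeR's common dispersion) was 68.1%, against 9.1% in the shscramble pair. Mitochondrially encoded genes took 1.95% and 0.455% of counts in shGOLM1 replicates 1 and 2, against 2.38% and 2.24% in shscramble. Ribosomal protein genes took 7.55% and 16.3% in shGOLM1, against 9.91% and 8.44% in shscramble. The normalization factors (TMM) were 1.12 and 0.828 in shGOLM1, against 1.02 and 1.05 in shscramble. In bulk RNA, fewer cells of a type and less RNA per cell cannot be told apart. Every member is therefore given library by library, and also with each shGOLM1 library compared alone with the shscramble pair. A lone library is assumed to vary like the shscramble pair, and such a fit compares libraries, not conditions. All 8 markers listed for the lymphoma were detected in every library, with TNFRSF8, which encodes CD30, at 539 and 88.4 CPM in shGOLM1 and 634 and 614 CPM in shscramble. They did not move one way: PRF1, which encodes perforin, was at 621 and 145 CPM in shGOLM1 against 2.91 and 2.71 CPM in shscramble, CD4 at 307 and 380 CPM against 182 and 180 CPM, and MUC1 at 136 and 50.1 CPM against 38.7 and 41.6 CPM. ALK was at 327 and 170 CPM in shGOLM1 against 340 and 316 CPM in shscramble, and GZMB at 149 and 20.4 CPM against 118 and 86.3 CPM. IL2RA was at 345 and 599 CPM against 476 and 469 CPM, and TIA1 at 78.2 and 70.1 CPM against 68.4 and 73.4 CPM. Summed, the 8 markers were at 2502 and 1522 CPM in shGOLM1 and 1860 and 1783 CPM in shscramble. Of these sums PRF1 made up 621 and 145 CPM in shGOLM1. The 4 B cell markers summed to 0.317 and 0.659 CPM in shGOLM1 and 0.245 and 0.18 CPM in shscramble, and the 6 stromal and epithelial ones to 1.1 and 3.65 CPM against 0.46 and 0.932 CPM. Of the 4 myeloid markers CSF1R was at 309 and 231 CPM in shGOLM1 and 235 and 242 CPM in shscramble, with CD14, LYZ and ITGAM below 1 CPM in each library.

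Sequences come from a table of RefSeq start sites (GRCh38.p14), in which 8 of the 10 members were matched, with 14 windows of the 250 bases before a start. Printed here are the windows of CDK4, the kinase gene that was lower in both shGOLM1 libraries, of CDKN2D and 1 of 2 windows of CDK6, the members that differed most between the shGOLM1 libraries, and both windows of CDKN2A, whose starts give 2 proteins from 1 gene. All 5 lie on the minus strand and run 5′ to 3′ toward the start. Capitals mark CACGTG, the E-box bound by MYC and related factors, on either strand.
CDK4, chr12:57752311-57752560: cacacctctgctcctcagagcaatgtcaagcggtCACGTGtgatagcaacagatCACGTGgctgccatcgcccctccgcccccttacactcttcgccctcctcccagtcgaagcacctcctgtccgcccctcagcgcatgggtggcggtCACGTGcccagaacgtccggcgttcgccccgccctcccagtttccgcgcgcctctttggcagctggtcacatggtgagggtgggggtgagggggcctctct
CDK6, chr7:92836574-92836823: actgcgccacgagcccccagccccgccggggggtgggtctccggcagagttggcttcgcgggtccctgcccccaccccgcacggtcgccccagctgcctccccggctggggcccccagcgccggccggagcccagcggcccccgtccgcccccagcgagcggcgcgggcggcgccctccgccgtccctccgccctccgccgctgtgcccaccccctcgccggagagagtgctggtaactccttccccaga
CDKN2D, chr19:10568980-10569229: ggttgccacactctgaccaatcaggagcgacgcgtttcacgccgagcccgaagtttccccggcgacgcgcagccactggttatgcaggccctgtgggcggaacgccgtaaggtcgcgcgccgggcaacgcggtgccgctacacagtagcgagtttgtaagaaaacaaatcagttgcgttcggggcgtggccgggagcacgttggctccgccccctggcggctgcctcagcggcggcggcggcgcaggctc
CDKN2A, p14ARF start, chr9:21995325-21995574: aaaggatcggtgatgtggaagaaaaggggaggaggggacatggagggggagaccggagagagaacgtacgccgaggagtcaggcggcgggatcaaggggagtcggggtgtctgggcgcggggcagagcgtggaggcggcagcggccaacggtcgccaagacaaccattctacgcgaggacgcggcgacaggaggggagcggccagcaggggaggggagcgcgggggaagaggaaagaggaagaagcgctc
CDKN2A, p16INK4a start, chr9:21974858-21975107: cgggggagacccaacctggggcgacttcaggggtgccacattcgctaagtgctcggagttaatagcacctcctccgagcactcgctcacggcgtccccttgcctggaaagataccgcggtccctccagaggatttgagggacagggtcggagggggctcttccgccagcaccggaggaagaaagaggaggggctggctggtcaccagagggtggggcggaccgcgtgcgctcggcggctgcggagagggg
The CDK4 window holds CACGTG at 3 places, beginning 216, 196 and 101 bases before the start. Among all 35116 windows of this length 6.34% held at least 1 such match and 28 held at least 3. Of the 14 member windows 3 held a match, the others being a pair of CDKN2C windows. E2F motifs (TTTCCCGC, TTTCGCGC, TTTGCCGC or TTTGGCGC, either strand) were in 0 of the 14 windows and in 2.79% of all windows. The STAT motif TTCNNNGAA was in 1 of the 14, the window of an RB1 start that lies inside the gene (chr13:48476200-48476449), and in 6.57% of all windows. That is the only RB1 window matched. These matches are letters in the reference genome, and factor binding was not measured.

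The D-type cyclin transcripts came from 1 gene. CCND1 (ENSG00000110092, chromosome 11, 69641087 to 69654474, GRCh38) and CCND2 (ENSG00000118971, chromosome 12, 4273772 to 4305350) were at 0 counts in every library. At this depth the upper limit for such a gene is 3 counts, equal to 0.0865 and 0.132 CPM in shGOLM1 and 0.0919 and 0.0902 CPM in shscramble, and this limit covers counting error only. CCND3 (ENSG00000112576, chromosome 6, 41934933 to 42050357) had 7645 and 6811 counts in shGOLM1 and 11880 and 10873 counts in shscramble. That is 220 and 299 CPM in shGOLM1 against 364 and 327 CPM in shscramble. The shGOLM1 libraries were the lower pair, without overlap, as for 26.5% of all tested genes. Among the 5212 tested genes of 4000 to 8000 bases, CCND3 stood above 11.2% in replicate 1 and above 48.8% in replicate 2. The mean was 260 ± 55.7 CPM in shGOLM1 and 346 ± 26.3 CPM in shscramble (SD, n = 2 each), a log2 fold change of -0.41 (SE 0.32) that did not pass edgeR's quasi-likelihood test (adjusted p = 0.613). With shGOLM1 replicate 1 alone it was -0.67 (adjusted p = 0.000125), and with replicate 2 alone -0.26 (adjusted p = 0.0605).

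**Figure D1:**
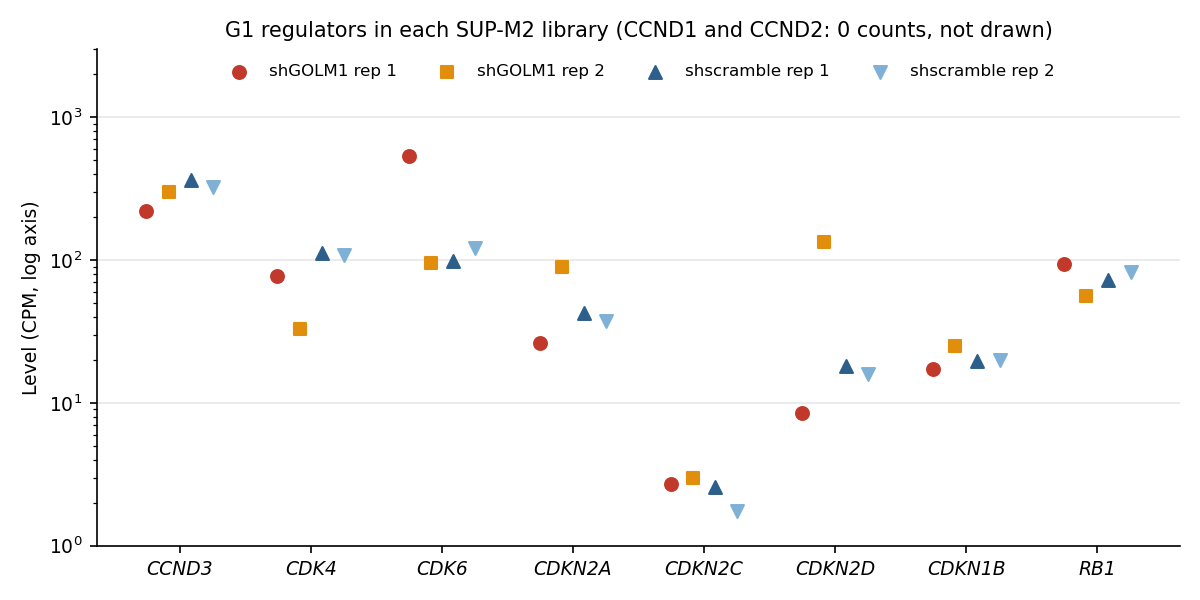
Level of each detected member in CPM (log axis) in the 4 libraries, 1 point per library and no error bars. CCND3 and CDK4 lie lower in both shGOLM1 libraries, while CDK6 stands out in shGOLM1 replicate 1 at 540 CPM and CDKN2D in replicate 2 at 135 CPM.

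CDK4 (ENSG00000135446, chromosome 12, 57747727 to 57756013) was lower in both shGOLM1 libraries, at 77.5 and 33 CPM, against 111 and 109 CPM in shscramble. The shscramble libraries were close together, and shGOLM1 replicate 2 was 3.33-fold below their mean while replicate 1 was 1.42-fold below it. Among the 3690 tested genes of 2000 to 4000 bases, CDK4 stood above 28.9% in replicate 1 and above 14.5% in replicate 2. Over the 4 libraries the mean was 55.2 ± 31.4 CPM in shGOLM1 and 110 ± 1.77 CPM in shscramble (SD, n = 2 each). The log2 fold change was -0.99 (SE 0.49) and did not pass edgeR's test (adjusted p = 0.481). Each shGOLM1 library taken alone did pass as lower, at -0.52 (adjusted p = 0.000894) for replicate 1 and -1.78 (adjusted p = 3.13e-09) for replicate 2 by edgeR. Of the 14071 genes tested with each library, 14.2% passed as lower with both and 9.83% as higher with both. CDK4 was the only member that passed as lower with both, and 0 members were among those higher with both. Of the 3168 exon bases of CDK4, 1369 overlap TSPAN31 on the other strand, and whether counting used the strand is not given, so reads of this stretch could belong to either gene. TSPAN31 had 391 and 276 counts in shGOLM1 and 287 and 235 counts in shscramble, against 2686 and 752 counts of CDK4 in shGOLM1 and 3632 and 3619 counts in shscramble.

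CDK6 (ENSG00000105810, chromosome 7, 92604921 to 92836594) had 18722 and 2171 counts in shGOLM1 and 3242 and 4068 counts in shscramble. In normalized terms it was at 540 and 95.4 CPM in shGOLM1 against 99.4 and 122 CPM in shscramble. Replicate 1 was 4.87-fold above the shscramble mean, while replicate 2 lay just below both shscramble libraries, so the groups overlap. The mean of 318 ± 314 CPM in shGOLM1 therefore describes neither shGOLM1 library, against 111 ± 16.2 CPM in shscramble (SD, n = 2 each). The log2 fold change over all libraries was 1.52 (SE 0.86, edgeR adjusted p = 0.512), and the authors' deposited table gives 1.49 with a p-value of 0.0405 and an adjusted p-value of 0.338. By edgeR it was 2.27 (adjusted p = 1.56e-12) with replicate 1 alone and -0.27 (adjusted p = 0.0781) with replicate 2 alone. CDK6 is a long gene model of 12260 bases, and the long genes tended upward in replicate 1: the 2292 tested genes of 8000 to 16000 bases had a median log2 difference from the shscramble mean of 0.23 there and -0.16 in replicate 2. Within that length class CDK6 stood above 97.2% of genes in replicate 1 and above 48.5% in replicate 2. The part of length in the CDK6 result was not tested.

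The balance of the kinases differed between libraries. Levels per length are the authors' FPKM, which are counts scaled to gene length and to a library size. That library size differs from the total of counts given above. The gene length is that of all exon bases in the gene model, so shares between genes depend on the model. CDK4 was at 23.8 and 10.1 FPKM in shGOLM1 and 34.8 and 34 FPKM in shscramble. For CDK6 the values were 42.8 and 7.55 FPKM against 8.02 and 9.87 FPKM. CDK6 thus made up 64.3% and 42.7% of the CDK4 and CDK6 sum in shGOLM1 and 18.7% and 22.5% in shscramble. Both shGOLM1 libraries had the higher share. In replicate 1 the CDK6 level was high and in replicate 2 the CDK4 level was low, and the sum itself was 66.6 and 17.7 FPKM in shGOLM1 against 42.8 and 43.9 FPKM in shscramble. With 2 libraries a group an exact two-sided permutation test cannot go below 0.333, so such shares are given without a test. The part of gene length in the shares was not tested.

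**Figure D2:**
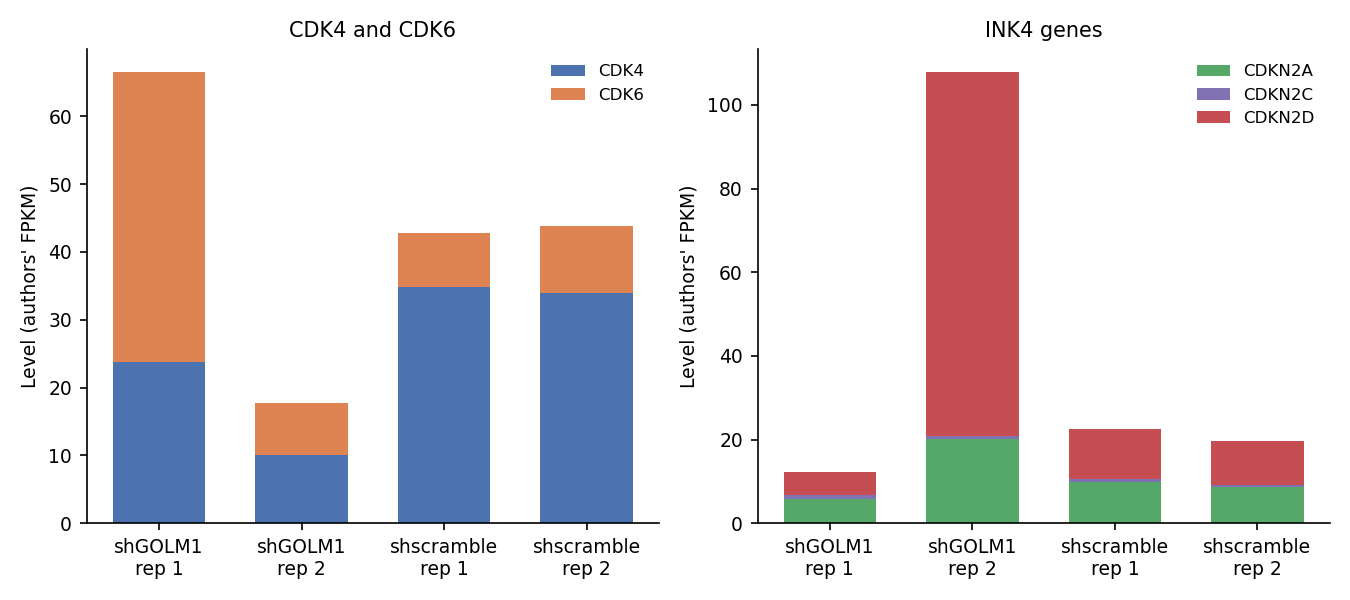
Stacked levels in the authors' FPKM for CDK4 and CDK6 (left) and for the INK4 genes (right), 1 bar per library. The kinase sum was 66.6 and 17.7 FPKM in shGOLM1 against 42.8 and 43.9 FPKM in shscramble, and the INK4 sum 12.2 and 108 FPKM against 22.5 and 19.7 FPKM.

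Among the INK4 inhibitors CDKN2D (ENSG00000129355, chromosome 19, 10566462 to 10569059), which encodes p19INK4d, differed most. It was at 8.45 and 135 CPM in shGOLM1, from 293 and 3064 counts, and at 18.1 and 16.1 CPM in shscramble, from 590 and 534 counts. The shGOLM1 libraries lay on opposite sides of the shscramble pair, replicate 1 below it by 2.02-fold and replicate 2 above it by 7.89-fold. The log2 fold change over all libraries was 2.07 (SE 1.27, edgeR adjusted p = 0.541), and in the authors' deposited table it is 2.04 with a p-value of 0.0205 and an adjusted p-value of 0.234. By edgeR it was -1.03 (adjusted p = 8.06e-05) with replicate 1 alone and 2.93 (adjusted p = 9.06e-12) with replicate 2 alone. CDKN2D has a short gene model of 1503 bases, and the 2659 tested genes under 2000 bases had median log2 differences of -0.16 and 0.34 in shGOLM1 replicates 1 and 2. CDKN2D stood above 14.2% of them in replicate 1 and above 92.7% in replicate 2, and the part of length was not tested.

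CDKN2A (ENSG00000147889, chromosome 9, 21967753 to 21995301) had the same order on a smaller scale. This gene encodes both p16INK4a and, from the other start printed above, p14ARF, which stabilizes p53 and is no INK4 inhibitor. Counts per gene do not separate the transcripts. CDKN2A was at 26.2 and 89.5 CPM in shGOLM1 and at 42.9 and 37.6 CPM in shscramble. Replicate 1 was thus again below the shscramble pair and replicate 2 above it. Among the 5212 tested genes of 4000 to 8000 bases, CDKN2A stood above 12.4% in replicate 1 and above 82.3% in replicate 2. The log2 fold change was 0.52 (SE 0.64, edgeR adjusted p = 0.739), with -0.63 (adjusted p = 0.00072) for replicate 1 alone and 1.10 (adjusted p = 5.97e-07) for replicate 2 alone. CDKN2A and CDKN2D were the members that passed in opposite directions with the 2 libraries, as 11.4% of the genes tested with each library did. Neighbouring genes on chromosome 9 were nearly silent. Of the 6 names listed 5 were in the table, and CDKN2B, which encodes p15INK4b, had 0 counts in all 4 libraries. MTAP, an enzyme of methionine salvage, had 6 and 0 counts in shGOLM1 and 0 in both shscramble libraries. DMRTA1 had 0 counts in both shGOLM1 libraries against 1 and 0 in shscramble, CDKN2A-DT had 4 and 0 against 1 and 0, and CDKN2B-AS1 had 19 and 12 against 8 and 23. CDKN2B-AS1 is antisense to CDKN2A and shares 341 of its 4329 exon bases, while CDKN2A itself had 910 and 2038 counts in shGOLM1 and 1399 and 1251 counts in shscramble.

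CDKN2C (ENSG00000123080, chromosome 1, 50960745 to 50974633), which encodes p18INK4c, was the lowest detected member. It was at 2.71 and 2.99 CPM in shGOLM1, from 94 and 68 counts, and at 2.57 and 1.74 CPM in shscramble, from 84 and 58 counts. Both shGOLM1 libraries were higher, as for 25.2% of all tested genes, but the gap to shscramble replicate 1 was small and the groups overlapped when library totals alone set the scale. The log2 fold change was 0.40 (SE 0.52, edgeR adjusted p = 0.755), and it passed with neither library alone (adjusted p = 0.524 and 0.348).

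Summed per length, the INK4 genes were at 12.2 and 108 FPKM in shGOLM1 and at 22.5 and 19.7 FPKM in shscramble. CDKN2D supplied 45% and 80.6% of that sum in shGOLM1 and 53% and 53.7% in shscramble. Relative to CDK4 plus CDK6, the INK4 sum was 0.183 and 6.1 in shGOLM1 and 0.525 and 0.449 in shscramble. The order held without CDKN2A, at 0.094 and 4.97 in shGOLM1 against 0.296 and 0.253 in shscramble. CCND3 over the same kinase sum was 0.555 and 2.83 in shGOLM1 and 1.45 and 1.27 in shscramble. The shGOLM1 libraries thus lay on opposite sides of the shscramble pair in each of these ratios. All of the ratios share the CDK4 and CDK6 sum as denominator, so they are not separate observations. That sum was 66.6 and 17.7 FPKM in shGOLM1 against 42.8 and 43.9 FPKM in shscramble. CCND3 itself was lower in both shGOLM1 libraries, and in replicate 2 it stood above 48.8% of tested genes of 4000 to 8000 bases. Tested genes under 2000 bases, the class of CDKN2D, had median log2 differences of -0.16 and 0.34 in shGOLM1 replicates 1 and 2. For genes of 8000 to 16000 bases, the class of CDK6, these were 0.23 and -0.16. The part of gene length in the ratios was not tested. Transcript levels do not give the amounts of the proteins.

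CDKN1B (ENSG00000111276, chromosome 12, 12715058 to 12722371), which encodes p27, was at 17.2 and 25.1 CPM in shGOLM1 and at 19.6 and 19.9 CPM in shscramble. The shGOLM1 libraries enclosed the shscramble pair. The log2 fold change was 0.10 (SE 0.36, edgeR adjusted p = 0.922), with -0.21 (adjusted p = 0.276) for replicate 1 alone and 0.30 (adjusted p = 0.0846) for replicate 2 alone. RB1 (ENSG00000139687, chromosome 13, 48303726 to 48599436) was at 93.3 and 56.3 CPM in shGOLM1 and at 72.3 and 82 CPM in shscramble, again enclosing the shscramble pair. Its log2 fold change was -0.04 (SE 0.37, edgeR adjusted p = 0.969). Replicate 2 alone passed as lower by edgeR (-0.50, adjusted p = 0.00197), and replicate 1 alone did not pass (0.26, adjusted p = 0.0814).

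**Figure D3:**
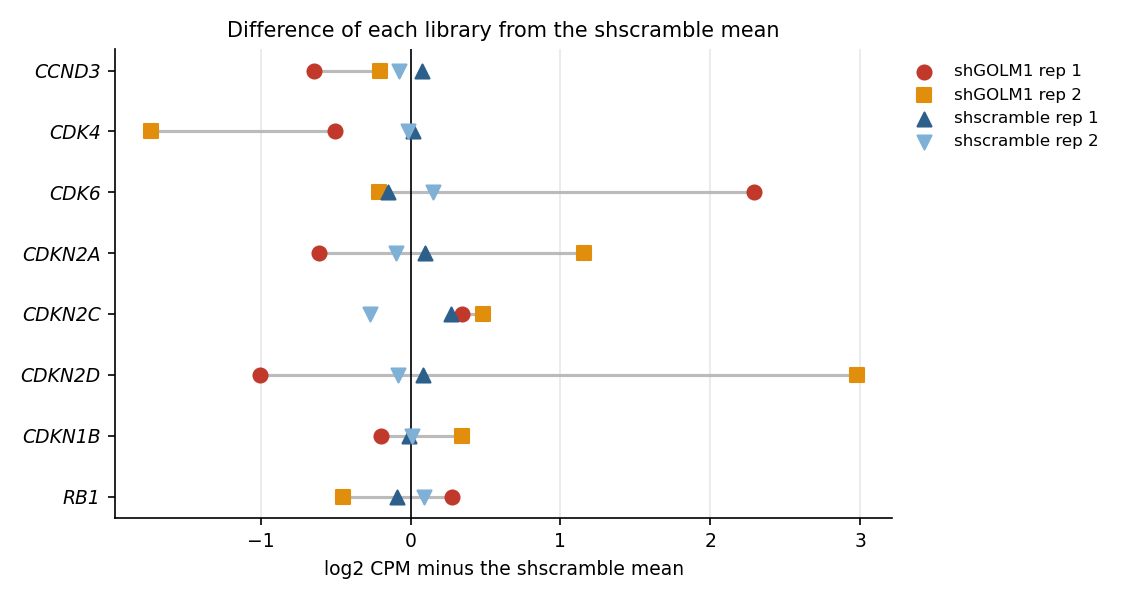
Difference of each library from the shscramble mean in log2 CPM for the 8 detected members, 1 point per library, with a grey line joining the shGOLM1 libraries. CDK4 and CCND3 lie left of 0 in both shGOLM1 libraries and CDKN2C right of 0, while CDKN2D runs from -1.01 to 2.98.

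By edgeR's quasi-likelihood test over all 4 libraries 0 of the 8 members tested passed an adjusted p of 0.05, and 0% of all 14166 genes did. The targeted gene GOLM1 did not pass this test either (adjusted p = 0.42). A count of 0 members therefore does not show that the members were unchanged. At an unadjusted p under 0.05 there were 0 members and 11.8% of all genes. DESeq2 called 0 members and 3.76% of all genes, and limma-voom 0 members and 0% of all genes. CCND1 and CCND2 were not tested for lack of counts. With shGOLM1 replicate 1 alone, 5 members passed, CDK6 as higher and CCND3, CDK4, CDKN2A and CDKN2D as lower, where 44.5% of all genes passed (20.4% as higher and 24.1% as lower). With replicate 2 alone 4 members passed, CDKN2A and CDKN2D as higher and CDK4 and RB1 as lower, where 67.4% of all genes passed (33.3% as higher and 34.1% as lower). There were 0 members called without a filter on low counts, with the replicate number as a block, without shscramble replicate 1 or without shscramble replicate 2, where 0.759%, 1.43%, 0.139% and 0.126% of all genes were called. The median log2 fold change of the 8 members was 0.25, against 0.05 over all genes tested.

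In order of level per length, shscramble cells had CCND3 at 58.9 ± 4.51 FPKM and CDK4 at 34.4 ± 0.565 FPKM. RB1 at 11.8 ± 1.05, CDKN2D at 11.2 ± 0.948, CDKN2A at 9.2 ± 0.854 and CDK6 at 8.95 ± 1.31 FPKM followed, and CDKN1B came after at 6.96 ± 0.0545 and CDKN2C at 0.644 ± 0.175 FPKM (SD, n = 2 each). RB1 and CDKN2D lay within their spread of each other, as did CDKN2A and CDK6. The length counts all exon bases of the gene model, so the order depends on that model too, which the SD does not cover. In shGOLM1 the order was not shared by the libraries. CDK6 led in replicate 1 at 42.8 FPKM, followed by CCND3 at 36.9, whereas CDKN2D led in replicate 2 at 87 FPKM, followed by CCND3 at 50.1.

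For CDK4 and CDKN2D, the members with the smallest unadjusted p among cyclins and kinases and among inhibitors and RB1, the genes with the nearest pattern were sought. Distance was Euclidean over the 4 libraries in log2 CPM minus the shscramble mean, among 9707 genes with a mean of at least 5 CPM over the 4 libraries. Nearest to CDK4 were TFAP4 (distance 0.0407), DCLRE1B (0.047) and TUBG1 (0.0504). TFAP4, which encodes the transcription factor AP-4, was at 22.4 and 9.84 CPM in shGOLM1 and 33.3 and 31.8 CPM in shscramble. Nearest to CDKN2D were SAT1, ARG2 and HIST1H1C, at distances of 0.286, 0.286 and 0.305. SAT1, an enzyme of polyamine breakdown, was at 10.7 and 167 CPM in shGOLM1 against 19.6 and 17.6 CPM in shscramble.

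Other genes of the G1 to S passage were read from lists. Among all genes tested, 25.2% were higher and 26.5% lower without overlap between groups, and the median log2 fold change was 0.05. None of the listed genes passed edgeR's test over the 4 libraries (smallest adjusted p = 0.42). CDKN1A, a p53 target that encodes the inhibitor p21, was at 402 and 1249 CPM in shGOLM1 against 103 and 98 CPM in shscramble, with a log2 fold change of 3.04 by edgeR (adjusted p = 0.42). The authors' deposited table gives CDKN1A 3.01 with an adjusted p-value of 0.000326. CDKN1C had 0 and 9 counts in shGOLM1 and 0 in both shscramble libraries. Among the 10 E2F and DP genes, 6 were lower and 1 was higher without overlap, against 26.5% lower and 25.2% higher over all genes, and the median log2 fold change was -0.84 against 0.05. The higher one was E2F7, an E2F that represses transcription, at 137 and 132 CPM in shGOLM1 against 45.9 and 46.8 CPM in shscramble. Its relative E2F8 was at 15.4 and 8.04 CPM in shGOLM1 against 43 and 42.6 CPM in shscramble, and the authors' deposited table gives it -1.90 with an adjusted p-value of 0.0418. E2F4, the chief partner of the other pocket proteins, was at 79.1 and 75.7 CPM in shGOLM1 against 156 and 157 CPM in shscramble.

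Of the 11 S phase entry genes driven by E2F, 8 were lower and 1 was higher without overlap, where 26.5% and 25.2% of all genes were, with a median log2 fold change of -1.02. MCM5, a subunit of the replicative helicase, was at 108 and 66.6 CPM in shGOLM1 against 201 and 189 CPM in shscramble, and MCM6 and MCM7 were lower in both libraries too. Among the 5 genes of cyclin E, cyclin A and CDK2, 3 were lower and 0 higher without overlap, where 26.5% of all genes were lower, and CCNE2, 1 of the 3, overlapped with library totals alone. CCNE1 was at 15.5 and 5.18 CPM in shGOLM1 against 23.1 and 22.7 CPM in shscramble. Cyclin A genes were at 159 and 222 CPM in shGOLM1 against 262 and 257 CPM in shscramble for CCNA2, and at 20.4 and 80.4 CPM against 26.8 and 27.3 CPM for CCNA1. Of the other pocket protein genes, RBL2 was at 40.4 and 67.7 CPM in shGOLM1 against 27.9 and 36.8 CPM in shscramble, and RBL1 at 29 and 6.5 CPM against 33.4 and 33.4 CPM.

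**Figure D4:**
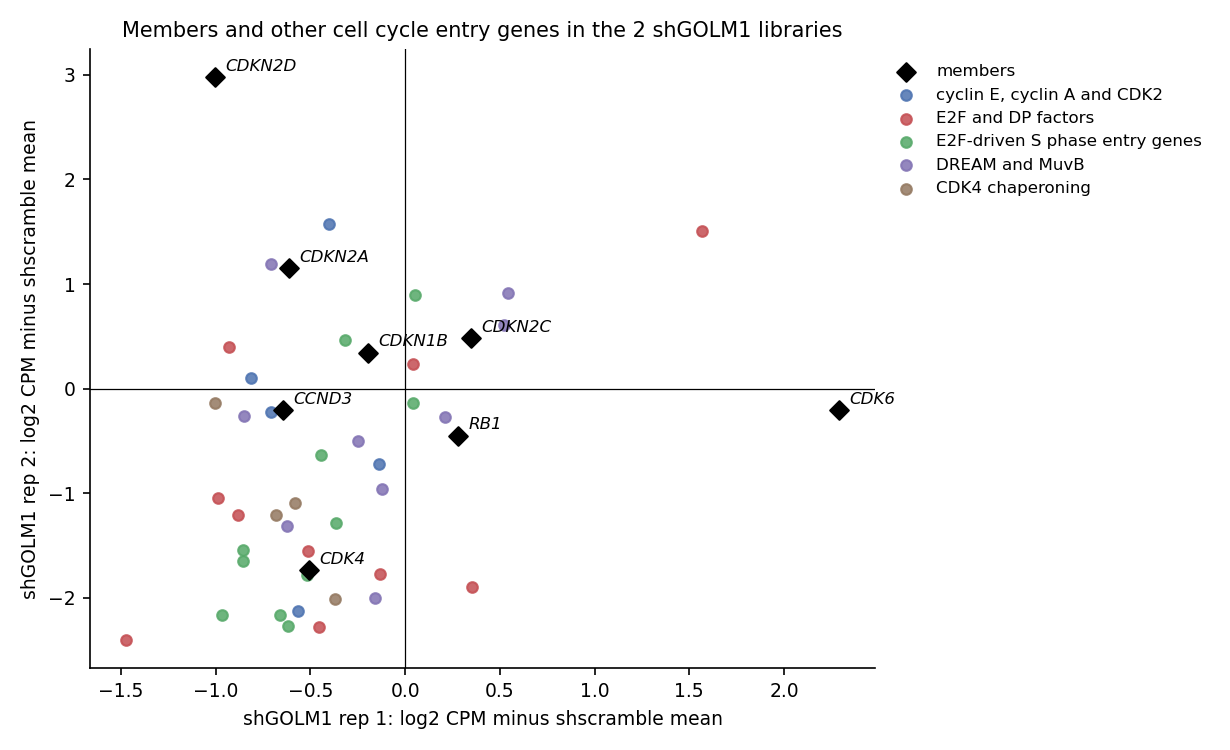
Difference from the shscramble mean in log2 CPM in shGOLM1 replicate 1 (x axis) and replicate 2 (y axis), 1 point per gene, for the 8 detected members and 5 lists of cell cycle entry genes. CDK4 sits at -0.51 and -1.73 among S phase entry genes that are low in both libraries, while CDK6 and CDKN2D lie far out along 1 axis each.

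The 4 genes of CDK4 chaperoning, HSP90 and its kinase adaptor among them, were all lower without overlap, where 26.5% of all genes were (median log2 fold change -0.87). CDC37, the adaptor that brings CDK4 to HSP90, was at 189 and 133 CPM in shGOLM1 against 295 and 273 CPM in shscramble. Of the 12 genes of p27 and cyclin turnover 3 were lower and 1 was higher without overlap, which is close to or below the 26.5% and 25.2% of all genes, with a median of 0.22. CUL1, the scaffold of the SCF ubiquitin ligase, was at 77.4 and 44.2 CPM in shGOLM1 against 124 and 122 CPM in shscramble, and SKP2, which brings p27 to that ligase, at 59.6 and 49.4 CPM against 72.3 and 68.8 CPM. The 3 genes of the kinase that activates CDKs overlapped between groups (median -0.06), with CDK7 at 35.7 and 123 CPM in shGOLM1 against 47.9 and 49.7 CPM in shscramble.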

How the data were processed

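RNA-seq of SUP-M2 cells was analysed from the deposited table of 4 libraries. Per the labels' protocols, total RNA from an RNeasy kit was made into libraries with a SMARTER mRNA-seq kit. No aligner, counter or strand setting was stated. GRCm38 and mm10, both mouse builds, are what the submitters' processing notes name, yet all 58735 identifiers and coordinates equal those of human GENCODE 29 (GRCh38).

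The deposited counts are whole numbers per gene, and the file headers call them counts without saying what was counted. The FPKM values are the authors' own, and served only for levels per length. The deposited mean signal per group, log2 fold change, p-value and adjusted p-value are the authors', with the tool not named.

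Counts were tested with edgeR 4.0.16 (quasi-likelihood, TMM, filterByExpr, no covariate, two-sided) in R 4.3.3, with Benjamini-Hochberg adjustment over 14166 genes and a threshold of 0.05. Log2 CPM used a prior count of 2. The SE given with an edgeR log2 fold change is its absolute value over the square root of the quasi-likelihood F statistic. The fit was also run on simulated counts, whose outcome is not given here. Both groups had the same spread in that simulation, unlike in these data, so it does not vouch for these results. Alternatives were other scalings and filters, a replicate block, each library left out, DESeq2 1.42.0 and limma-voom (limma 3.58.1). All members were reported. From the other lists up to 3 genes of at least 1 CPM with the smallest p could be named, and the other CDK inhibitors and the CDKN2A neighbours were all given. CCNE2, RBBP4 and FOXM1, the genes named for overlap under another scaling, and the marker genes with values were chosen after their values were seen. MYC in the closing section was chosen after its values were seen. For 27 genes whose symbol had become a date, the name was taken from the identifier. The members, lists and tests were chosen with earlier results of these data known.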

Additional observations from a re-analysis of the deposited data

How the results depend on the processing

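Over all genes, edgeR called 0 as planned, with DESeq2-type size factors, with library totals alone and with at least 5 CPM in 2 libraries, and limma-voom called 0. edgeR called 192 with no filter on low counts, and DESeq2 called 533. The count ran from 20 to 10290 with 1 library left out. The count of members called was 0 in each of these settings and ran from 0 to 5 with 1 library left out, reaching 5 without shGOLM1 replicate 2 and 4 without shGOLM1 replicate 1. Labels give both groups replicates 1 and 2 but no shared batch, and same-numbered libraries did not deviate together (correlation -0.0977). With a replicate block 203 genes and 0 members were called.

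Leaving out 1 library turned the log2 fold change of CDK6 (-0.27 to 2.27), CDKN2D (-1.03 to 2.93), CDKN2A (-0.63 to 1.10), CDKN1B (-0.21 to 0.30) and RB1 (-0.50 to 0.26), with the sign turned by leaving out an shGOLM1 library for each of them and for RB1 also by leaving out shscramble replicate 2. CDKN1B was -0.0298 with library totals alone and RB1 0.0715 with the 5 CPM filter. CCND3, CDK4 and CDKN2C kept their direction in every setting run; CDKN2C was not tested under the 5 CPM filter. With library totals alone the groups overlapped for CDKN2C, CCNE2, CDC25B, E2F3, FBXO4, AMBRA1, RBBP4, FOXM1, STAT3 and GSK3B, which the counts without overlap include, while CDK2 became lower without overlap. Counts per kilobase give the same shares per length by construction, so that alternative tests nothing. Low counts limit CDKN2C, at 58 to 94 per library.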

Other observations

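Regulators upstream of the D cyclins and INK4 genes were mixed, with 3 of 9 higher and 2 lower without overlap, near the 25.2% and 26.5% of all genes, and a median log2 fold change of 0.27 against 0.05 over all genes tested. FOXO3, a transcription factor that promotes arrest, was at 18.1 and 20.4 CPM in shGOLM1 against 7.75 and 7.25 CPM in shscramble (edgeR adjusted p = 0.42). MYC was at 92.4 and 14.6 CPM in shGOLM1 against 91 and 92.3 CPM in shscramble, low in replicate 2 alone. JUNB, an AP-1 factor, was at 441 and 1446 CPM against 526 and 475 CPM, and EZH2, the Polycomb methyltransferase that silences CDKN2A in many cells, at 113 and 146 CPM against 168 and 174 CPM.

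Among the CDC25 phosphatases and WEE1, 1 of 4 was lower and 1 higher without overlap, near the 26.5% and 25.2% of all genes, with a median of 0.02. CDC25A, which activates CDK2, was at 71.8 and 6.85 CPM in shGOLM1 against 92.2 and 92.7 CPM in shscramble. Of 9 DREAM and MuvB genes 5 were lower and 2 higher without overlap, where 26.5% and 25.2% of all genes were, with a median of -0.37. Of the 5, RBBP4 and FOXM1 overlapped with library totals alone. DYRK1A, the kinase that starts DREAM assembly, was at 67.9 and 71.9 CPM in shGOLM1 against 47.2 and 47.3 CPM in shscramble, and LIN52, its substrate in that complex, at 10.3 and 6.37 CPM against 15.3 and 16.6 CPM.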
